A study of Homo sapiens with 16 samples.

Results

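MYC encodes a transcription factor that drives growth and division and is one of the most studied oncogenes. The gene lies in band 8q24, next to a long stretch with few protein-coding genes that carries inherited risk for prostate cancer and holds enhancers that contact the MYC promoter. HOXB13 is a DNA-binding homeobox protein typical of prostate cells, and HDAC1 and HDAC3 are histone deacetylases that work in corepressor complexes. Acetylation of histone H3 at lysine 27 (H3K27ac) marks active promoters and enhancers, and ATAC-seq reads open chromatin.

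The interval described here was chosen by position alone, as every peak that overlaps chr8:127900000-128900000 (build hg19). It holds MYC at chr8:128748315-128753680 with 848 kb before the gene start and 152 kb past it. Before and past follow rising coordinates, the direction in which MYC is transcribed. Of the 816313 peaks in 12 peak lists, 418 fell in this 1 Mb, and merging the overlapping factor and ATAC-seq peaks gave 172 sites. RefSeq's GRCh38.p14 table places PCAT1, PRNCR1, CCAT1, CASC8, CCAT2, POU5F1B and CASC11 before MYC in that order and PVT1 directly after it. No peak was assigned to these neighbours, because gene positions on hg19 were not used here.

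The libraries came from LNCaP, an androgen-sensitive prostate cancer line, and PC-3, an androgen-independent one. LNCaP cells carried the control shRNA vector pGIPZ, an shRNA against HOXB13 (shHOXB13, called knockdown here), or shHOXB13 with a lentivirus for HOXB13-WT or HOXB13-G84E, all for 7 days. HOXB13 was immunoprecipitated in all 4 LNCaP conditions, HDAC3 in the control and knockdown, and HDAC1 in the control. ATAC-seq was made from 50000 LNCaP control or knockdown cells. In PC-3, HOXB13 was mapped with pGIPZ and H3K27ac with pGIPZ and shHOXB13, and how long PC-3 cells were infected is not given in the sources used here. All LNCaP lists thus come from infected cells, the controls included. Each group held 1 library, so no test between conditions could be made and no p-value is given. Intervals are 95% limits for counting error only and say nothing of the spread between cultures. Peak strength is given as the normalized tag count, the tags in a peak scaled to a library of 10000000 tags. Sequenced tags per library ranged from 13.5 M to 47.2 M, with M for mega.

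HOXB13 peaks were denser in the interval than in the average megabase in both cell lines. The LNCaP control list had 53 peaks here against a mean of 31.4 per Mb over the genome, a ratio of 1.69, and 149 of 2888 windows (5.16%) held as many or more. PC-3 had 51 HOXB13 peaks against a mean of 24.4, a ratio of 2.09, and 5.26% of windows held as many or more. The 10 Mb of chromosome 8 around the interval, from 120 to 130 Mb, held 494 PC-3 and 378 LNCaP control HOXB13 peaks. The high PC-3 density thus extended beyond the interval. HDAC3 had 18 peaks in the control (ratio 1.54) and 18 in the knockdown (1.69). ATAC-seq gave 23 peaks in the control (1.81) and 10 in the knockdown (0.972). HDAC1 had 3 peaks in the control (0.527). The HOXB13 lists with WT and G84E held 81 and 87 peaks (1.23 and 1.32), and the knockdown list 11 (1.40). PC-3 H3K27ac formed 34 regions in the control (1.96) and 29 in the knockdown (1.69).

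**Figure D1:**
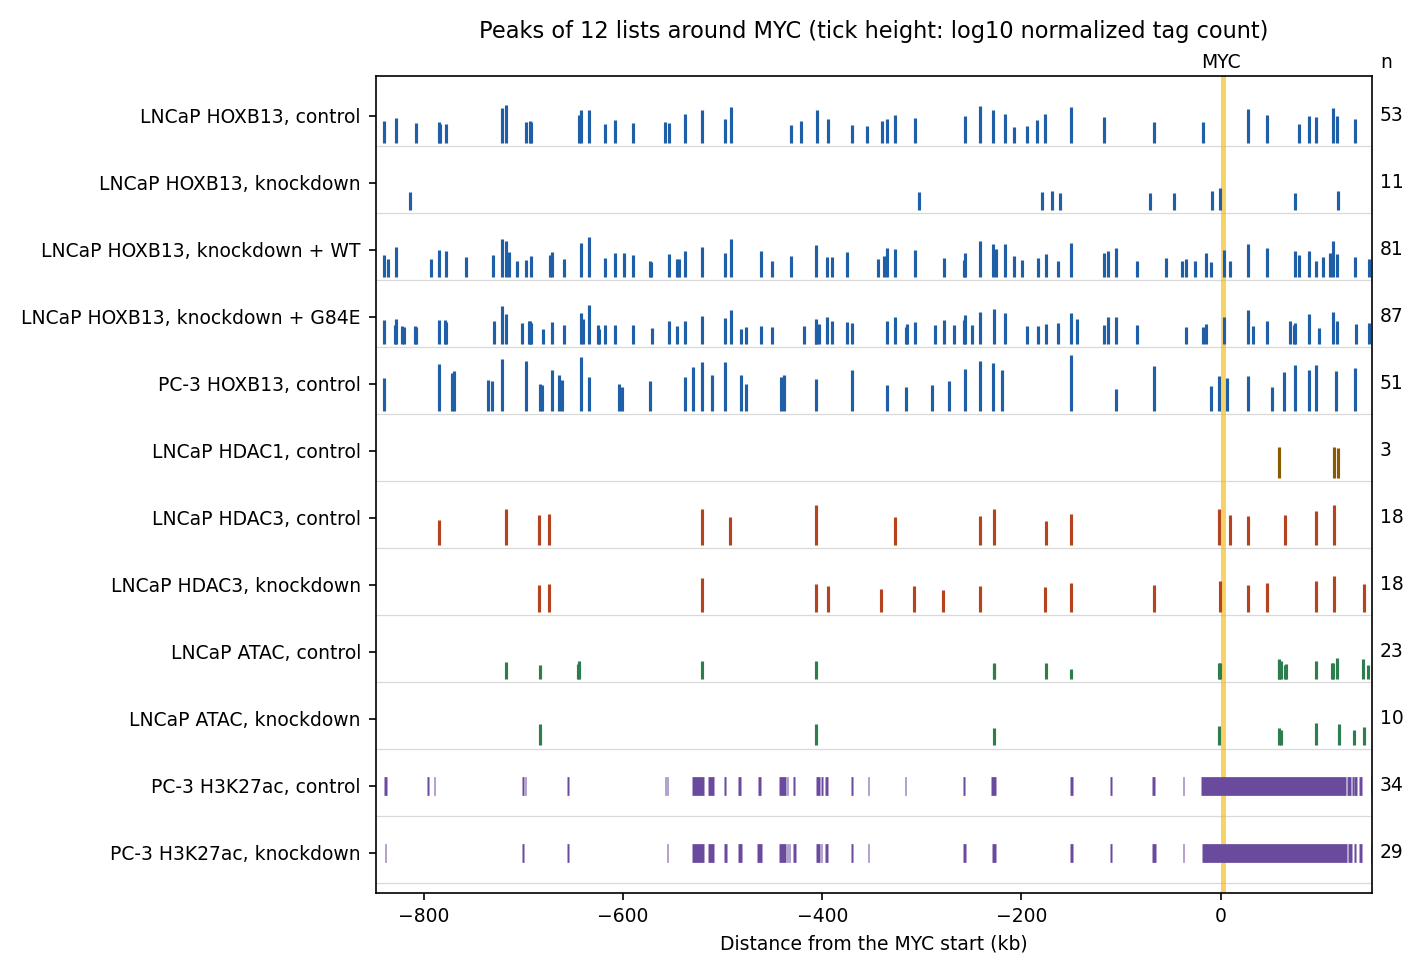
Positions of all 418 peaks, by distance in kb from the MYC start, for the 12 lists. Tick height rises with the log10 normalized tag count, bars are H3K27ac regions drawn to scale, the yellow band is MYC, and n is the number of peaks. The knockdown HOXB13 row holds 11 ticks against 53 in the control, and 1 H3K27ac region spans MYC in both PC-3 lists.

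Within the interval the lists filled different stretches. Control HOXB13 peaks were spread over all 10 bins of 100 kb, with 2 to 8 per bin. The most, 8 each, lay at 648 to 548 kb and at 248 to 148 kb before MYC. The fewest, 2, lay at 148 to 48.3 kb before it, which also had the fewest G84E peaks (5) and PC-3 HOXB13 peaks (2) and, with 448 to 348 kb before MYC, the fewest WT peaks (5). ATAC-seq was concentrated past the gene: 11 of 23 control peaks and 6 of 10 knockdown peaks lay in the bin from 51.7 to 152 kb after the MYC start. All 3 HDAC1 peaks lay in that same bin. HDAC3 peaks of the control were most frequent, 4, at 248 to 148 kb before MYC. PC-3 H3K27ac regions were most frequent, 8 in the control and 9 in the knockdown, at 448 to 348 kb before MYC.

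**Figure D2:**
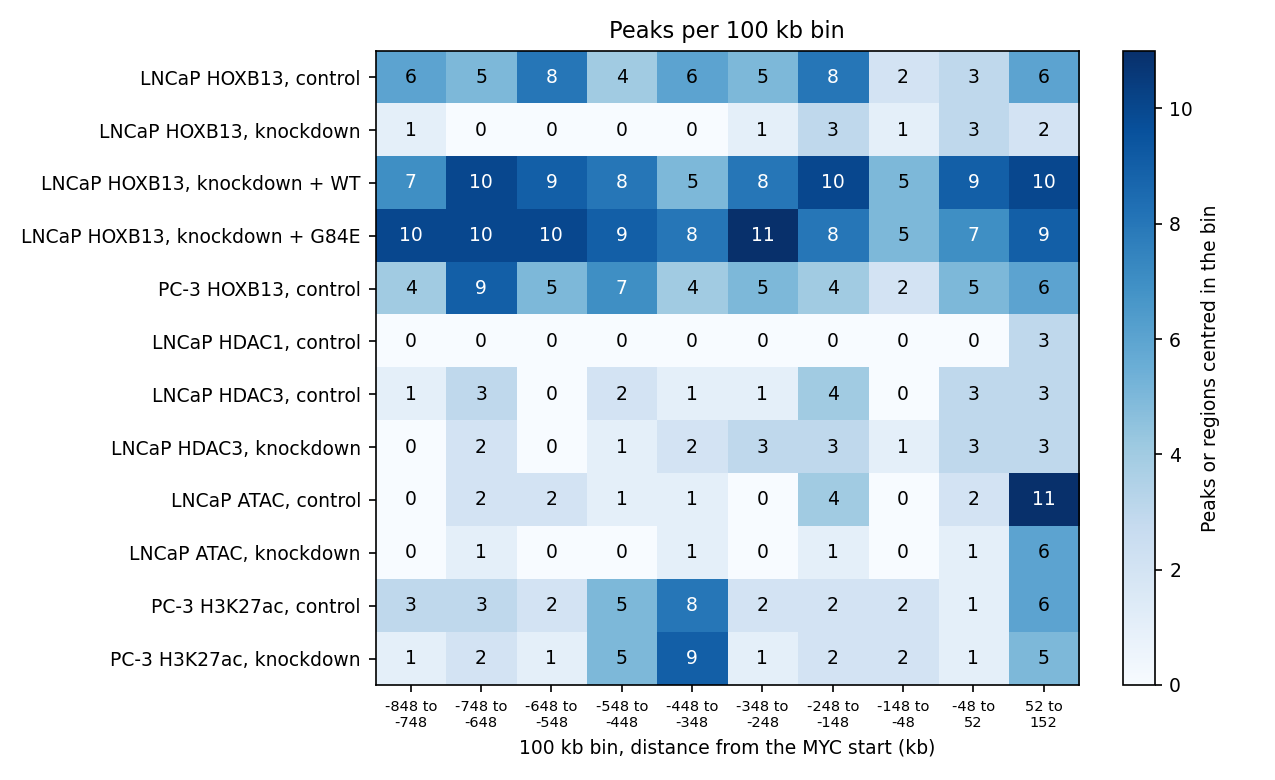
Number of peaks or regions whose centre lies in each 100 kb bin, by distance from the MYC start in kb, for the 12 lists. The bin just before MYC (148 to 48.3 kb) has the fewest or joint fewest HOXB13 peaks in the control, WT, G84E and PC-3 lists, and the last bin holds 11 of 23 control ATAC peaks.

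At MYC itself the control HOXB13 list had no peak. Its nearest peaks lay 17816 bp before the gene (chr8:128730209-128730499, normalized tag count 6.98) and 22229 bp past its end (chr8:128775909-128776199, 23.6). With WT a peak was called inside the gene at chr8:128751209-128751483, at 12.4 (95% limits 9.22 to 16.4). With G84E an overlapping peak was called at chr8:128751353-128751635, at 11.5 (8.59 to 15.2). The pair of peaks therefore had overlapping counting limits, and neither had a counterpart in the control, knockdown or PC-3 HOXB13 lists.

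The knockdown list had a HOXB13 peak just before MYC. It lay at chr8:128747398-128747654, 661 bp before the gene, at 7.63 (5.34 to 10.6), and was the strongest of the 11 knockdown peaks of the interval. Within that list of 22864 peaks it ranked 1130. A second knockdown peak lay 8244 bp before the gene, at 5.51. A further WT peak lay 3946 bp past the gene end, at a value of 4.47.

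Deacetylase and open chromatin peaks also stood near the start of MYC. The control HDAC3 library had a peak 1773 bp before the gene, at chr8:128746072-128746542 and 27.8 (21.2 to 35.8). The knockdown HDAC3 library had none called there but one closer in, 312 bp before the gene at chr8:128747639-128748003, at 17.9 (13.1 to 23.8). That knockdown HDAC3 peak overlapped the end of the knockdown HOXB13 peak, from 128747639 to 128747654. A second control HDAC3 peak lay 3588 bp past the gene end, at 15.3. Control ATAC peaks lay 1941 and 270 bp before the gene, each at 4.15, and a single knockdown ATAC peak lay 1846 bp before it, at 6.28. PC-3 HOXB13 peaks lay 1758 bp before MYC (24.6; 19.1 to 31.2), 911 bp past its end (21.0) and 9939 bp before it (10.1). The stretch about 2 kb before MYC thus carried control HDAC3, control and knockdown ATAC and PC-3 HOXB13 peaks. Most of these calls were near the cutoff, which was 4-fold over the surrounding 10000 bp. The fold in this stretch was 4.82 for control HDAC3, 4.96 for control ATAC, 4.2 for PC-3 HOXB13 and 7.06 for knockdown ATAC. Closer to the gene it was 4.43 for knockdown HDAC3 and 4.82 for control ATAC. Whether HDAC3 changed place between the libraries was not tested.

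After knockdown the control HOXB13 peaks of the interval were no longer called. None of the 53 control peaks was called again (0 of 53, which allows a share of up to 5.66%), beside 1.48% over the whole control list. The 53 peaks had control values of 4.37 to 34.0, and the knockdown list reached down to 3.18 over the genome, from the deeper library (47.2 M against 34.4 M tags). None of the 11 knockdown peaks lay at a control peak either, beside 5.92% of the whole knockdown list. Their values were 4.66 to 7.63, all below the control median of 8.73 in the interval.

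Re-expression brought peaks back to most of the control sites, with either form of the protein. With WT a peak was called at 38 of the 53 control peaks (71.7%, limits 58.4 to 82.0), beside 67.4% of the whole control list. With G84E it was 36 of 53 (67.9%, limits 54.5 to 78.9), beside 63.2%. Both forms were called at 32 control peaks (60.4%, beside 54.3%), WT alone at 6 (11.3%, beside 13.2%) and G84E alone at 4 (7.55%, beside 8.99%). Neither was called at 11 (20.8%, beside 23.6%). These shares lie near those of the whole lists, so the interval did not stand apart in how many sites were filled again.

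Which control peaks were filled again went with their strength. Among the 20 strongest control peaks (12.2 to 34.0), 19 had a WT peak and 19 a G84E peak. Among the remaining 33 (4.37 to 11.6), 19 had a WT and 17 a G84E peak. The whole control list showed the same split: at 12.2 or above 95.5% had a WT and 92.3% a G84E peak, and below it 61.5% and 57.1%. The split at 20 peaks was chosen after the values were seen. The median control value was 13.2 where both forms were called and 7.28 where neither was.

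The strongest control HOXB13 peak of the interval lay at chr8:128030855-128031145, 717 kb before MYC. Its value was 34.0 in the control, 26.8 with WT and 16.1 with G84E, and it had HDAC3 (27.8) and ATAC (4.70) peaks in the control. No PC-3 HOXB13 peak was called there. The next, 242 kb before MYC, read 30.0 in the control, 27.8 with WT, 18.8 with G84E and 96.9 in PC-3. The third, 150 kb before MYC, read 28.8, 23.3 and 17.9 in the LNCaP libraries and 172.8 in PC-3. At each of the next 3 peaks by control value WT read above the control, but the counting limits of all 3 log2 ratios included 0. The peak after these read 23.6 in the control and 20.6 with WT.

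**Figure D3:**
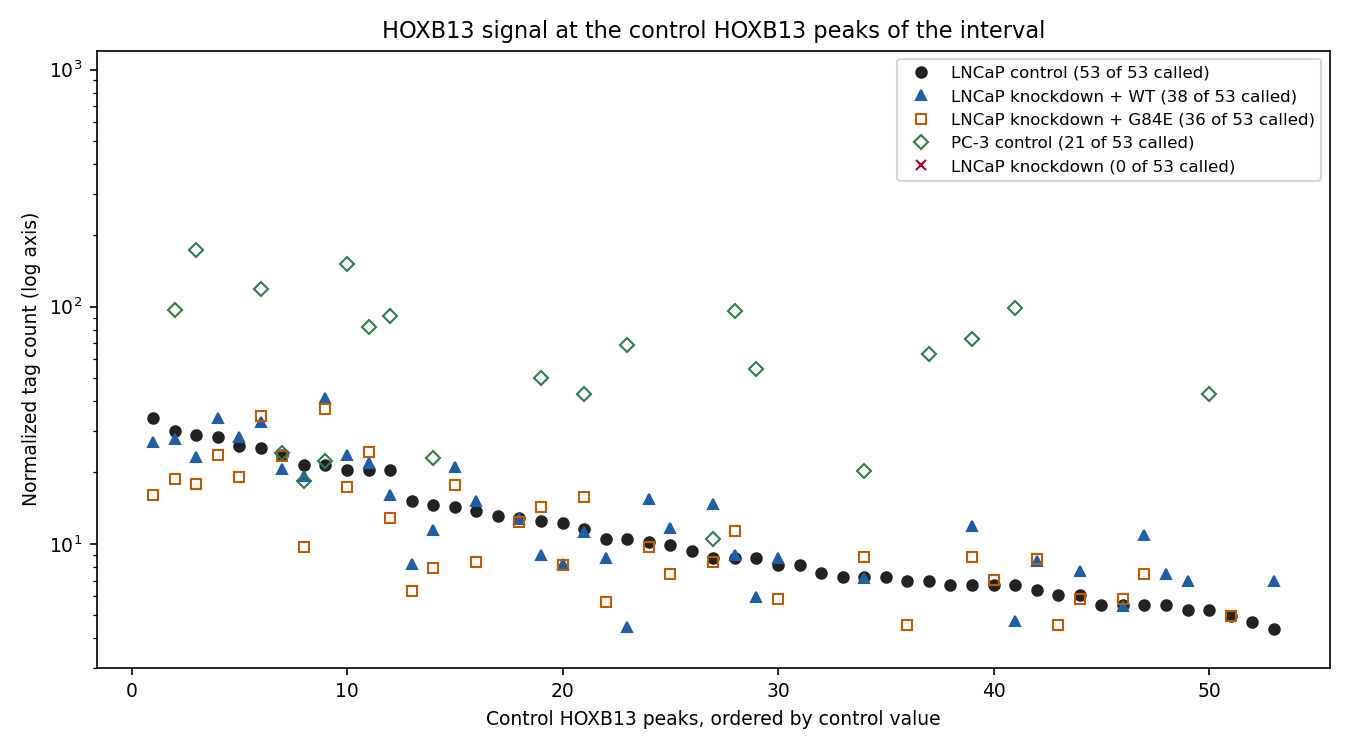
Normalized tag count (log axis) of HOXB13 at the 53 control HOXB13 peaks of the interval, ordered by control value, where a peak was called with WT, with G84E or in PC-3. No knockdown point appears because none of the 53 was called, and the weaker peaks to the right have fewer WT and G84E points.

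Peak heights after re-expression were close to the control in the middle and varied from site to site. The median log2 ratio of WT over control was 0.06 at the 38 peaks called in both (0.17 over the whole lists), with 20 above and 18 below 0. The highest ratio with WT was 778 kb before MYC, from 5.53 to 10.9 (log2 ratio 0.98, limits 0.18 to 1.84). The next were 634 kb before it, from 21.5 to 41.2 (0.94), and 785 kb before it, from 6.69 to 11.9 (0.83). The lowest ratios were at sites 95.8 kb past the MYC start (10.5 to 4.47, −1.23), 176 kb before it (15.1 to 8.19, −0.88) and 117 kb past it (12.2 to 8.19).

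For G84E over control the median log2 ratio was −0.06 at 36 peaks (0.02 over the whole lists), with 14 above and 22 below 0. The counting limits lay below 0 at 9 of these peaks and above 0 at 2. For WT over control they lay below 0 at 2 of 38 peaks and above 0 at 5. No share over all shared peaks is given for these counts, so they cannot be set against the whole lists. The whole-list medians differed in the same direction, 0.02 for G84E and 0.17 for WT. The lowest G84E ratios were 176 kb before MYC (15.1 to 6.34, −1.25), 405 kb before it (21.5 to 9.73, −1.14) and 717 kb before it (34.0 to 16.1, −1.08). The highest ratio was 634 kb before MYC, from 21.5 to 37.1 (0.79), a site that was also higher with WT. The next, at 721 kb before MYC and 88.6 kb past its start, were 25.3 to 34.6 and 11.6 to 15.8.

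G84E against WT is the direct comparison of the variant, with both proteins introduced by lentivirus. Of the 81 WT peaks of the interval, 51 (63.0%, limits 52.1 to 72.7) had a G84E peak, beside 55% of the whole WT list. At those 51 peaks the median log2 ratio of G84E over WT was −0.25, beside −0.13 over all shared peaks, and 32 lay below and 19 above 0. A ratio of −1 or below was seen at 1 of them, beside 2.86% of all shared peaks, and a ratio of 1 or above at none, beside 0.818%. The lowest was 461 kb before MYC (10.7 with WT and 5.21 with G84E, −1.04, limits −1.83 to −0.27). The sites 406 kb before MYC (19.4 and 9.73, −0.996) and 46.7 kb past its start (15.1 and 8.37, −0.85) followed. Higher values with G84E were seen 258 kb before MYC (4.72 and 8.83, 0.90), 395 kb before it (6.46 and 12, 0.89) and 278 kb before it (5.71 and 9.28, 0.70). The strongest WT and G84E peak of the interval was the same, 634 kb before MYC, at 41.2 and 37.1, where the control had 21.5.

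Re-expression also gave sites that the control list lacked. Both WT and G84E were called at 18 merged sites of the interval without a control HOXB13 peak, the one inside MYC among them, which is 10.5% of the 172 merged sites beside 13.9% of all 396218 merged sites. The WT and G84E lists are longer than the control list over the whole genome (190879 and 191796 against 91430 peaks), and the part of list length in this count was not tested.

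HDAC3 and HOXB13 peaks overlapped at a higher share in the interval than in the lists as a whole. In control LNCaP cells 12 of the 18 HDAC3 peaks (66.7%, limits 43.7 to 83.7) overlapped a HOXB13 peak, beside 36.1% of all HDAC3 peaks. Seen from HOXB13, 13 of 53 peaks (24.5%, limits 14.9 to 37.6) had an HDAC3 peak, beside 13.4%. That share depended on the rule, at 11.3% with peak centres within 100 bp and 39.3% with equal numbers of peaks. No whole-list share by these rules is given. The HOXB13 peaks with HDAC3 had a median value of 20.4 and those without 7.86. Of the 20 strongest control HOXB13 peaks 10 had an HDAC3 peak, beside 31.6% of the whole control list at 12.2 or above. Of the remaining 33 only 3 had one, beside 9.55% of the list below that value. HOXB13 peaks of the interval were also somewhat stronger than the list (median 8.73 against 7.28), and HDAC3 peaks were similar (16.4 against 15.3). No HOXB13 peak met 1 of the 3 HDAC1 peaks (0 of 53, allowing up to 5.66%), beside 1.94% of the whole list.

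The strongest HDAC3 peaks of the control were at chr8:128342538-128343008, 406 kb before MYC, and at chr8:128861632-128862102, 114 kb past its start. Each had a value of 41.3. The third place was shared by sites 521 and 228 kb before MYC at 28.3. All 4 had a control HOXB13 peak, with values of 21.5, 25.9, 20.4 and 20.4 in the same order.

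After knockdown 9 of the 18 control HDAC3 peaks were called again (50.0%, limits 29.0 to 71.0), beside 47.7% of the whole list. Of the 18 knockdown HDAC3 peaks, 11 (61.1%) lay at a control HOXB13 peak, beside 27.7% of the whole knockdown HDAC3 list. So HDAC3 peaks were called in knockdown cells at places where the control, but not the knockdown, had a HOXB13 peak. At the 9 peaks called in both, values were lower after knockdown at all 9, with a median log2 ratio of −0.39 beside −0.44 over all shared peaks. Peak width differed between these libraries (471 against 365 bp, the knockdown peaks being narrower), and per bp of peak the median was −0.02. Of the 9, 6 lay above the median of all shared peaks, so the interval as a whole was not lower than the rest of the list.

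A single HDAC3 site was much lower after knockdown than the others. At 406 kb before MYC the value went from 41.3 in the control to 12.5 in the knockdown. That is a log2 ratio of −1.72 (limits −2.34 to −1.13, and −1.36 per bp of peak). Only 1.68% of all shared HDAC3 peaks had a ratio this low or lower. It was the 1 of 9 at −1 or below, beside 15.2% of all shared peaks, and none reached 1, beside 0.414%. At the equally strong site 114 kb past the MYC start the values were 41.3 and 28.5 (−0.535), and at 95.7 kb past it 23.7 and 17.1 (−0.47). The other 6 ranged from −0.41 to −0.29. ATAC-seq was called in both libraries at this HDAC3 site, at 5.26 in the control and 7.06 in the knockdown (limits of the log2 ratio −0.59 to 1.44), and WT and G84E HOXB13 read 19.4 and 9.73 there.

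Open chromatin overlapped HOXB13 at 10 of the 23 control ATAC peaks of the interval (43.5%, limits 25.6 to 63.2), beside 26.1% of the whole ATAC list. From the HOXB13 side it was 10 of 53 (18.9%, limits 10.6 to 31.4), beside 10.3%. Of the 20 strongest control HOXB13 peaks 9 had an ATAC peak, and of the remaining 33 only 1 had, beside 25.3% and 7.09% of the whole control list above and below the same value. The strongest control ATAC peaks lay 117, 58.4 and 143 kb past the MYC start, at 6.92, 6.37 and 6.09.

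After knockdown 8 of the 23 control ATAC peaks were called again (34.8%, limits 18.8 to 55.1), beside 50% of the whole list. The limits include that share. The interval value was 17.4% when at least 50% of the shorter peak had to overlap. No whole-list share by that rule is given, so this value cannot be set against the whole list. Control ATAC values in the interval were low, 2.49 to 6.92 with a median of 4.43, beside 5.26 in the list, and the knockdown library was shallower (25.5 M against 36.1 M tags). At the 8 peaks called in both the median log2 ratio was 0.46, beside 0.12 over all shared peaks, with 6 above and 2 below 0. Knockdown ATAC peaks were wider (110 against 96 bp), and per bp of peak these medians were 0.27 and −0.07. The largest ratio was at chr8:128064890-128064986, from 3.60 to 7.46 (1.05, limits −0.04 to 2.19, and 0.855 per bp of peak). It was the 1 of 8 at 1 or above, beside 2.65% of all shared peaks. None lay at −1 or below, beside 0.469%. The site 95.7 kb past the MYC start went from 4.98 to 8.24 and the site 1.99 kb before it from 4.15 to 6.28. The lowest ratios were 60.7 kb past the start, 4.98 to 4.32, and 143 kb past it, 6.09 to 5.49. The counting limits of every one of the 8 ratios included 0.

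**Figure D4:**
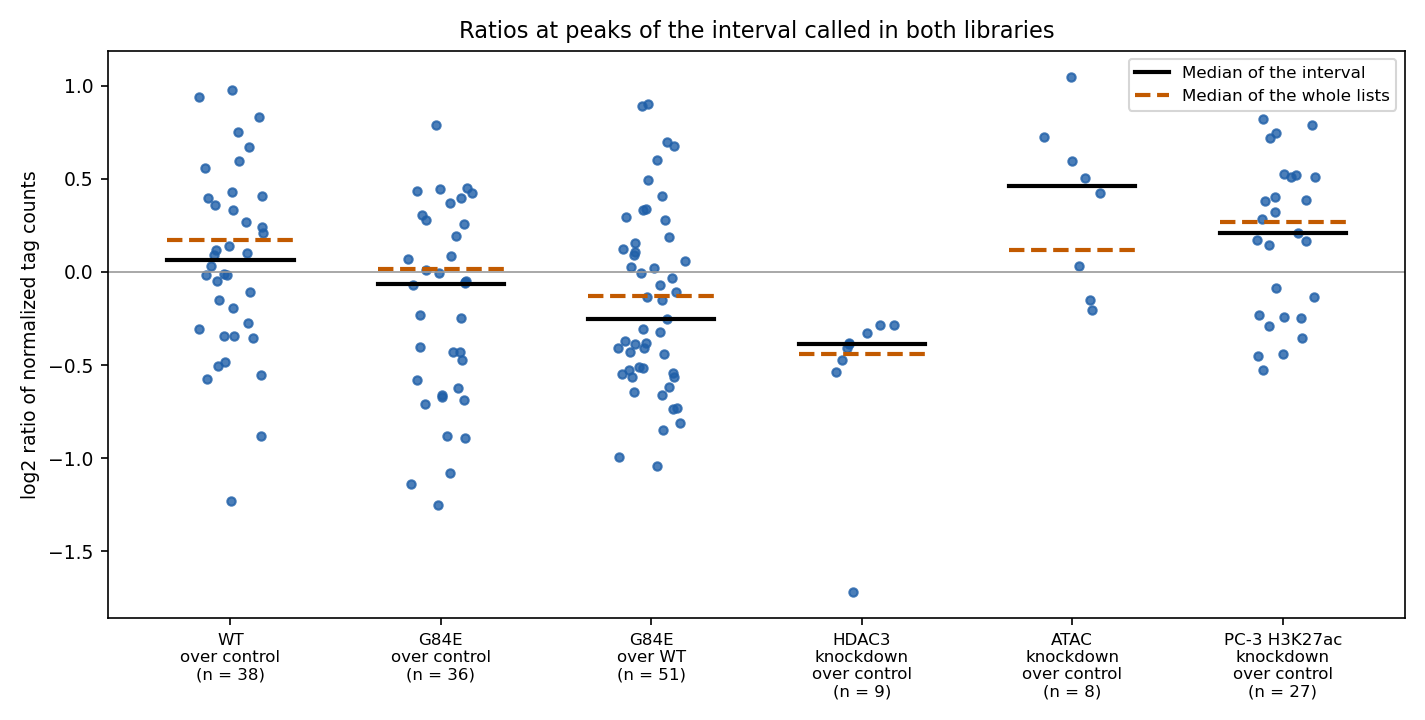
Log2 ratio of normalized tag counts at each peak of the interval called in both libraries of a pair, with the interval median (black) and the median over all peaks called in both (orange, dashed). All 9 HDAC3 points lie below 0 with 1 at −1.72, and the HDAC3 medians are −0.39 and −0.44.

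PC-3 and LNCaP shared a part of their HOXB13 sites in the interval. Of the 51 PC-3 peaks, 21 (41.2%, limits 28.8 to 54.8) overlapped a control LNCaP peak, beside 27.2% of the whole PC-3 list. Of the 53 LNCaP peaks, 21 (39.6%, limits 27.6 to 53.1) overlapped a PC-3 peak, beside 21.1%. At 16 merged sites (9.30%, beside 3.78% of all merged sites) HOXB13 was called in LNCaP control, WT and G84E and in PC-3. At 22 (12.8%, beside 9.12%) it was called in PC-3 and in no LNCaP list. The shared peaks were the stronger ones in both lines: PC-3 values had a median of 63.3 where shared and 19.6 where not, and LNCaP values 12.5 and 7.43. Different antibodies were used, from Santa Cruz in PC-3 and from Abcam in LNCaP, so cell line and antibody cannot be told apart.

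The strongest PC-3 HOXB13 peak of the interval was at chr8:128598364-128598754, 150 kb before MYC. It read 172.8 (158 to 189) and ranked 159 in a list of 70766, where LNCaP had 28.8. The next were 642 kb before MYC (151.5, LNCaP 20.4) and 721 kb before it (118.2, LNCaP 25.3). All 3 had a peak in the LNCaP control, WT and G84E lists.

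PC-3 HOXB13 peaks in the interval were high as a group, and the signal around them was high too. Their median value was 27.5, beside 12.7 in the whole list, a ratio of 2.17. The deposited fold of each peak over its surrounding 10 kb was not higher, with a median of 7.57 here and 7.95 in the list. Dividing the tag density of each peak by that fold gives the local density that the peak caller saw. This was 8.96 normalized tags per kb in the interval and 4.21 in the list, a ratio of 2.13, and the lowest of the 51 peaks had 4.62. For the LNCaP control the medians were 4.38 and 3.95, a ratio of 1.11.

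The higher local density was not limited to the interval. In windows of 10 Mb along chromosome 8, PC-3 medians ran from 1.75 to 4.32 over the first 70 Mb and from 6.08 to 7.76 beyond it, with 7.76 in the window that holds the interval. LNCaP medians ran from 3.40 to 4.44 over all windows. Copy number of either line was not measured here, and its part in these values was not tested. The deposited fold over the surroundings moved the other way, with PC-3 window medians of 7.48 to 12.8 over the first 70 Mb and 5.84 to 6.40 beyond.

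**Figure D5:**
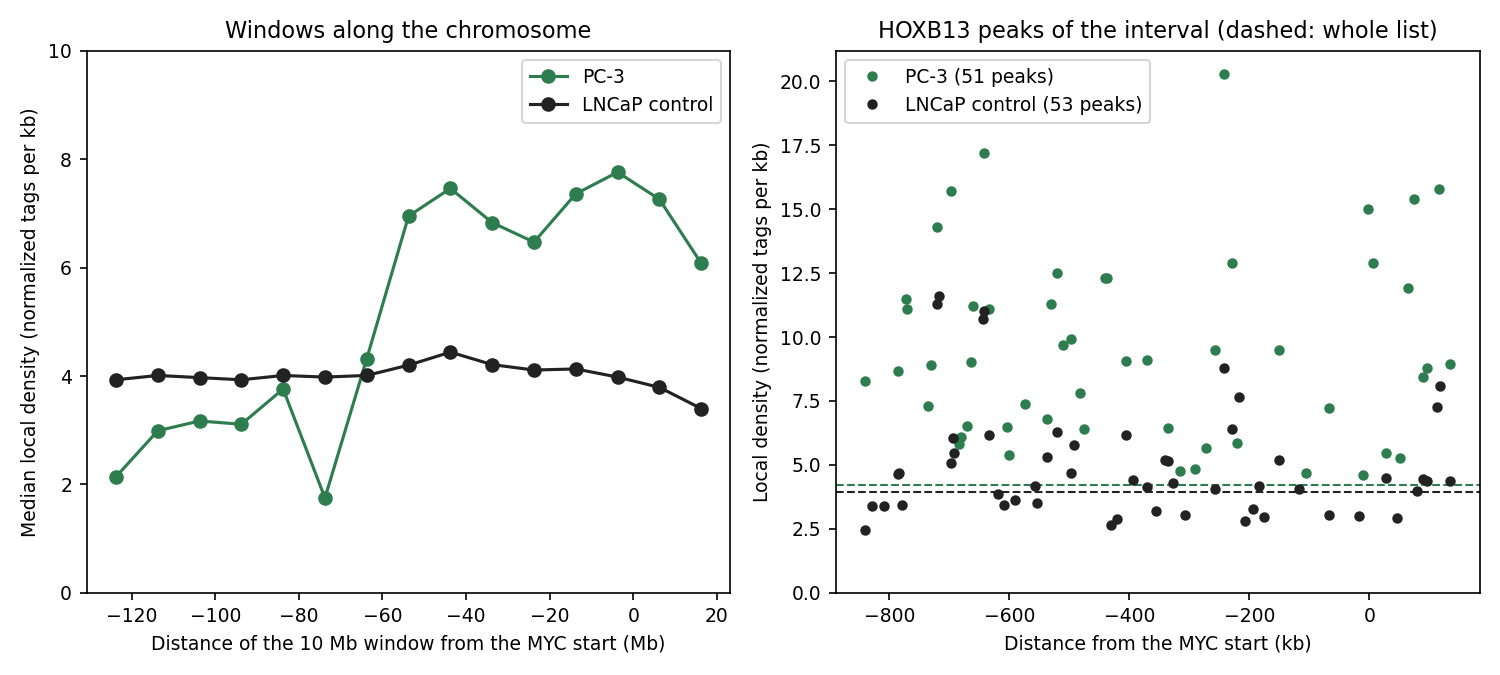
Local tag density around HOXB13 peaks (normalized tags per kb) in PC-3 and LNCaP control cells: medians of 10 Mb windows by distance from the MYC start in Mb (left) and each peak of the interval by distance in kb (right, dashed lines are whole-list medians). PC-3 windows reach 7.76 near MYC against at most 4.44 in LNCaP.

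In PC-3 a single H3K27ac region covered MYC and 121 kb past its end. It ran over chr8:128728896-128874341 in the control, 145 kb wide from 19.4 kb before the gene, with a normalized tag count of 33574.9. That is 231 normalized tags per kb, beside a list median of 16.7. The region ranked 3 of 50352 by tag count and held 91.1% of the H3K27ac tags of the interval. The other 33 regions had 13.4 to 815.3 normalized tags, with a median width of 2238 bp. Of the 10 regions with the highest tag counts in this list, 7 lay on chromosome 8, which holds 5.90% of the regions. The local density of PC-3 on this chromosome was given above for HOXB13 alone, and its part in this result was not tested. H3K27ac regions of chromosome 8 had a median of 16 normalized tags per kb in the control, beside 16.7 in the list. In the knockdown these medians were 17.7 and 18.9. The chromosome 8 medians cover the whole chromosome, and no such median is given for the part that holds MYC alone. The level along that part therefore cannot be read from them.

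The region was also called after HOXB13 knockdown in PC-3, with a somewhat higher tag count. It ran over chr8:128728993-128875176, with a value of 37691.0 and 258 normalized tags per kb, again ranked 3. Summed with the small neighbours that overlaps link to it, the locus went from 33643.1 to 37740.5, a log2 ratio of 0.17 (limits 0.15 to 0.18), beside a median of 0.27 over all loci called in both. The ratio thus lay above 0 beyond counting error but below the median of the pair of libraries.

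Of the 34 control H3K27ac regions, 28 (82.4%, limits 66.5 to 91.7) were called again after knockdown, beside 79.4% of the list. The median log2 ratio at the 27 loci called in both was 0.21, beside 0.27 over all loci called in both. Against that median 13 loci lay above and 14 below, and centring on it turned the interval median to −0.057. No locus reached 1, beside 8.44% of all loci, and none lay at −1 or below, beside 2.5%. The highest ratios were 354 kb before MYC (18 to 31.8, 0.82), 435 kb before it (18 to 31.1, 0.79) and at chr8:128283210-128287465 (64.8 to 108.7, 0.75). The lowest were 401 kb before MYC (62.8 to 43.6, −0.53), 839 kb before it (43.4 to 31.8, −0.45) and 404 kb before it (72.2 to 53.2, −0.44). After the region over MYC, the strongest was 440 kb before MYC, at 815.3 in the control and 919.2 in the knockdown. The next lay about 525 kb before it, at 483.2 and 629.3.

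HOXB13 peaks of the interval lay in these acetylated regions at a higher share than the whole lists, and the region over MYC held many of them. In PC-3, 27 of 51 HOXB13 peaks (52.9%, limits 39.5 to 65.9) lay in a control H3K27ac region, beside 34.5% of the whole list. Of the 53 LNCaP control HOXB13 peaks, 21 (39.6%, limits 27.6 to 53.1) lay in a PC-3 region, beside 14%. H3K27ac regions covered 23.7% of the interval, beside 4.15% of the genome windows used, and the region over MYC alone covered 14.5%. Without that region the PC-3 share was 17 of 41 (41.5%, limits 27.8 to 56.6) and the LNCaP share 13 of 45 (28.9%, limits 17.7 to 43.4), with 10.7% of the rest of the interval covered. The limits then included the whole-list share for PC-3 (34.5%) but not for LNCaP (14%). Coverage differed between these shares, 10.7% in the rest of the interval beside 4.15% of the genome windows. The part of coverage in the shares was not tested.

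The region over MYC differed among lists in how many peaks it held. Control ATAC had 11 of its 23 peaks there, 7.56 per 100 kb against 1.40 in the rest of the interval, and HDAC3 had 6 of 18, 4.13 against 1.40. LNCaP control HOXB13 had 8 of 53, 5.50 against 5.27 per 100 kb. The local tag density moved with these counts: it was 8.64 normalized tags per kb inside and 4.36 outside for ATAC, 7.13 and 5.88 for HDAC3, and 4.40 and 4.38 for HOXB13. The fold over the surroundings was lower inside for ATAC (6.28 against 9.96) and HDAC3 (4.85 against 5.76) and higher for HOXB13 (8.65 against 6.85). The part of local density in the counts was not tested. The knockdown HOXB13 list had 4 of its 11 peaks there, 2.75 against 0.819.

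Of the 172 merged sites, 7 (4.07%, beside 2.77% of all merged sites) had a call in 7 or more of the 12 lists with H3K27ac regions counted, and none was in all 12. These 7 were picked for their many calls, so which lists they share is in part fixed by that choice. The widest shared was 406 kb before MYC (chr8:128342524-128343008), in 10 lists, the place with the lowest HDAC3 ratio. Those in 9 lists lay 521, 228 and 150 kb before MYC and 95.7 and 114 kb past its start, and a site 27.6 kb past it was in 8 lists. At all 7 the control HOXB13 and HDAC3 lists and both H3K27ac lists had a call, and at none the knockdown HOXB13 list. The control values of HOXB13 at the 7 ran from 10.5 to 28.8, all above the interval median of 8.73. PC-3 HOXB13 was called at 6 of the 7 (18.4 to 172.8), and not at 114 kb past the MYC start. HDAC1 was called at that one alone, at 16.5. A merged site can hold peaks that do not overlap each other. This HDAC1 peak overlapped the control HDAC3 peak of the site but not its control HOXB13 peak.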

How the data were processed

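Peak lists of 12 libraries were analysed, and the 4 LNCaP H3K27ac samples were not analysed here. The submitters' processing notes name Bowtie2, HOMER 4.2 and build hg19. HOMER findPeaks was run by the authors on each library alone, without an input library and at a false discovery rate of 0.001, per the file headers. The factor lists required 4-fold over the surrounding 10000 bp, and the H3K27ac lists stitched windows of 1000 bp. The deposited signal is the normalized tag count, which the file headers describe as scaled to 10000000 tags. The deposited findPeaks score chose the better-scoring and equal-number subsets, and all ranks printed are by normalized tag count. Local density was derived from each peak's fold over its surroundings, a ratio the authors deposited. Tag count, score and fold are the authors' own for each peak, and ratios, limits, ranks and local density were computed from them.

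An overlap of 1 bp made a pair of peaks shared, with the highest tag count used where several did, and linked H3K27ac regions were summed. Normalized tag counts and header totals gave back whole tags (100% of values under 10 within 0.1 tags). Shares have Wilson limits, tag counts exact Poisson limits, and ratios exact Clopper-Pearson limits, at 95%. The upper limit for a count of 0 is 3 counts. Overlap code was tested on simulated data. Genome densities are means over 2888 windows of 1 Mb (chromosomes 1 to 22 and X) that held a peak.

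Conditions could not be tested against each other, as each group held 1 library. Named peaks were those within 10 kb of MYC, the 3 strongest per list, the 3 highest and lowest ratios per pair, sites in 7 or more lists, and the fullest and emptiest 100 kb bins. The interval, lists and rules were chosen with earlier results of these data known. The window background, the local density, the 20 strongest peaks, the split at the H3K27ac region over MYC and the 10 Mb windows, as well as the shares over all merged sites, were chosen after these values were seen. Python 3.11.15, numpy 2.4.6, pandas 2.3.3, scipy 1.17.1 and matplotlib 3.10.9 were used.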

Additional observations from a re-analysis of the deposited data

How the results depend on the processing

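Alternatives were another overlap rule, the better-scoring 50% of every list, equal numbers of peaks and leaving out the fullest 100 kb bin. Another scale for ratios and another background for densities were also used. Of 68 recomputed values, 59 stayed within the 95% limits of the main value (for medians, limits over the peaks). For control HOXB13 peaks called again after knockdown every alternative had to return 0, since no peak overlapped by 1 bp. These values are among the 59 and do not test that result. With the better-scoring 50% of every list, control HOXB13 peaks were called with WT at 83.9% and with G84E at 80.6%, and the PC-3 HOXB13 density ratio was 3.28. Control HOXB13 peaks had an HDAC3 peak at 11.3% with peak centres within 100 bp and at 39.3% with equal numbers of peaks. The ATAC share called again after knockdown was 17.4% when at least 50% of the shorter peak had to overlap. The median HDAC3 ratio was −0.02 per bp of peak, and centring on all shared peaks turned it to 0.053. The same centring turned the median H3K27ac ratio to −0.057. Centring subtracts the median of all shared peaks, and the cause of the other shifts was not tested. The overlap of PC-3 HOXB13 with H3K27ac without the region over MYC was added after seeing the data and gave 41.5%. Centre distances were not run for H3K27ac regions. No paired analysis was possible because each group held 1 library. Few peaks and 1 library per group limit what can be read from the interval: the ATAC and HDAC3 ratios rest on 8 and 9 peaks.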
